A study of Homo sapiens with 9 samples.

Results

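The genes examined were 53 genes of G2 and mitosis, listed by name for their known role. The list was drawn up with earlier results of these data known. All 53 were listed among the 32906 genes of the expression files, and 52 of them were among the 14363 genes tested, those whose group mean reached 1 FPKM in any of the groups (FPKM is fragments per kilobase of exon, scaled to the sequencing depth of the library). The exception was PRC1, a microtubule bundling protein of the central spindle, which stood between 0.496 and 0.923 FPKM in the 9 libraries and was not tested. Of its exonic bases, 58.4% are shared with other annotated genes. RNA sequencing had been done on cells labelled Huh7, a human hepatocellular carcinoma line, 48 h after transfection with a scrambled siRNA (Scramble) or with either of 2 siRNAs against KDM4C, a histone lysine demethylase (Si-KDM4C#1 and Si-KDM4C#2). Each of the 3 groups had 3 libraries. The labels name no engineered allele and no other treatment. The cells were profiled as whole transfected cultures, so transfected and untransfected cells were not separated.

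Progression from G2 into mitosis is driven by CDK1 bound to B-type cyclins. Their genes, with those of the mitotic kinases, the spindle checkpoint, the kinetochore and the cytokinetic ring, are transcribed late in the cell cycle, and many are silenced in quiescent cells by the DREAM complex and activated in G2 by the MuvB core with B-MYB and FOXM1. Their promoters are known for the cell cycle genes homology region (CHR), bound by MuvB, and the CCAAT box, bound by NF-Y. In proliferating tumour cells these transcripts are widely used as a measure of division.

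The 9 libraries held 14597498 to 18058546 fragments, recovered from the FPKM values. KDM4C read 4.88, 4.63 and 4.57 FPKM in Scramble, 1.18, 1.10 and 1.13 FPKM with Si-KDM4C#1, and 0.256, 0.349 and 0.256 FPKM with Si-KDM4C#2, so the target was lower in every silenced library and lowest with Si-KDM4C#2. Against Scramble it fell by 1.41 and by 2.15 on the log2 scale (limma-trend, adjusted p = 2.65e-07 and 5.45e-08). The added 1 FPKM shrinks the change of a gene this low, and voom on the recovered fragments gave -1.97 and -4.10. Of 13 hepatocyte markers, 10 were listed, and all 10 stayed under 1 FPKM in every library, with APOA2 highest at 0.248 FPKM and a summed level of 0.0347 to 0.433 FPKM. The liver transcripts for which the labelled line is known were thus near 0 in all 3 groups, and what this says of the line was not tested. No label states that libraries of a group came from separate cultures, so p-values measure the spread between these libraries, which may be technical.

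Promoter sequences are shown for members with the largest falls or rises and for PLK1, because their motif content can be read against their values. RefSeq promoters (GRCh38.p14) were matched for 44 of the 53 members, 43 of them tested. Each line gives the 160 bases before the RefSeq start site, 5′ to 3′ on the strand of the gene. Capitals mark matches on either strand to the CHR (TTTGAA, or TTCAAA on the other strand), the CCAAT box (CCAAT, or ATTGG) and an E2F site (TTTCCCGC or TTTGGCGC). The windows lie at chr17:40417897-40418056 (minus strand) for TOP2A, chr5:163460472-163460631 (plus) for HMMR, chr7:36389702-36389861 (plus) for ANLN, chr16:23678729-23678888 (plus) for PLK1, chr16:2429287-2429446 (plus) for CCNF, chr1:154974521-154974680 (plus) for CKS1B, chr17:8210226-8210385 (minus) for AURKB and chr2:26785896-26786055 (plus) for CENPA.
TOP2A: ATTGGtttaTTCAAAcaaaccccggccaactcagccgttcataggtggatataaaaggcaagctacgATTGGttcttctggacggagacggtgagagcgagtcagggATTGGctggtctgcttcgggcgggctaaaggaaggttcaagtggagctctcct
HMMR: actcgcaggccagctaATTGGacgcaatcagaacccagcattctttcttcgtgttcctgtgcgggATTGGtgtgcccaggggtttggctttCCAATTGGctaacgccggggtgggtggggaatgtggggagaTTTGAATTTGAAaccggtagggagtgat
ANLN: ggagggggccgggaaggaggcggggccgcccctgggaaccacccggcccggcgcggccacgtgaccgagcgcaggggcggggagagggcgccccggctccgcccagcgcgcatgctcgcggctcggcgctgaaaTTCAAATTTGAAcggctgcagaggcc
PLK1: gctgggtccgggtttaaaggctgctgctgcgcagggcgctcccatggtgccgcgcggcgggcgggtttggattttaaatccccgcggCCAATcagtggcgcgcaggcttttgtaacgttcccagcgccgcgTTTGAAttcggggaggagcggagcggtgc
CCNF: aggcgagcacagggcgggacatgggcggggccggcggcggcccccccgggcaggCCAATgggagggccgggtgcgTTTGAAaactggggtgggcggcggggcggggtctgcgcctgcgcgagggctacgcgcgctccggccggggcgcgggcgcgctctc
CKS1B: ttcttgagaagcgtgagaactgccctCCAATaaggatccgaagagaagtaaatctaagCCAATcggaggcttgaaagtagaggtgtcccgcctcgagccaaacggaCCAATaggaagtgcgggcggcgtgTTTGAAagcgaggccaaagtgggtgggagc
AURKB: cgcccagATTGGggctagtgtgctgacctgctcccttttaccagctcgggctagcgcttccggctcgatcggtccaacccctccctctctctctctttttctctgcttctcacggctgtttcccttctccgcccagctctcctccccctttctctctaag
CENPA: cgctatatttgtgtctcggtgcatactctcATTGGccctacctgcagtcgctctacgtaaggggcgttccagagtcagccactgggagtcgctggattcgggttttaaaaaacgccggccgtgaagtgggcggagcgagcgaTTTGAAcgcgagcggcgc
In HMMR the stretch CCAATTGG holds CCAAT matches on both strands that overlap by 2 bases, and both HMMR and ANLN carry a pair of adjoining CHR matches. In PLK1 and CKS1B the last CCAAT box stood at -73 and -54 and the CHR at -29 and -30 (first base of the match, counted from the start site). A CCAAT box upstream of a CHR was also found in other members, such as HMMR (-66 and -28), KIF11 (-53 and -28) and CKS2 (-52 and -29). AURKB held no CHR match in its window and 1 CCAAT box, at -153.

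Over the 300-base promoters, the CHR letters were found in 30 of the 43 members (69.8%), against 9.19% of the 9172 promoters of tested genes and 15.4% of all 27305 promoters in the table. The CCAAT box was found in 34 of 43 (79.1%), against 37.0% and 35.7%. Both motifs stood together in 26 of 43 (60.5%), against 3.98% and 6.08%, while an E2F match was found in 2 of 43 (4.65%), CENPA and NUSAP1, against 3.98% and 2.31%. Over all 44 matched members, PRC1 included, the median first base of a CHR match lay at -27 and that of a CCAAT box at -75. Members that fell with Si-KDM4C#1 held the CHR in 15 of 21 promoters and those that rose in 12 of 17, and the CCAAT box in 15 of 21 and 15 of 17. A match is a description of letters and not a bound site.

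**Figure D1:**
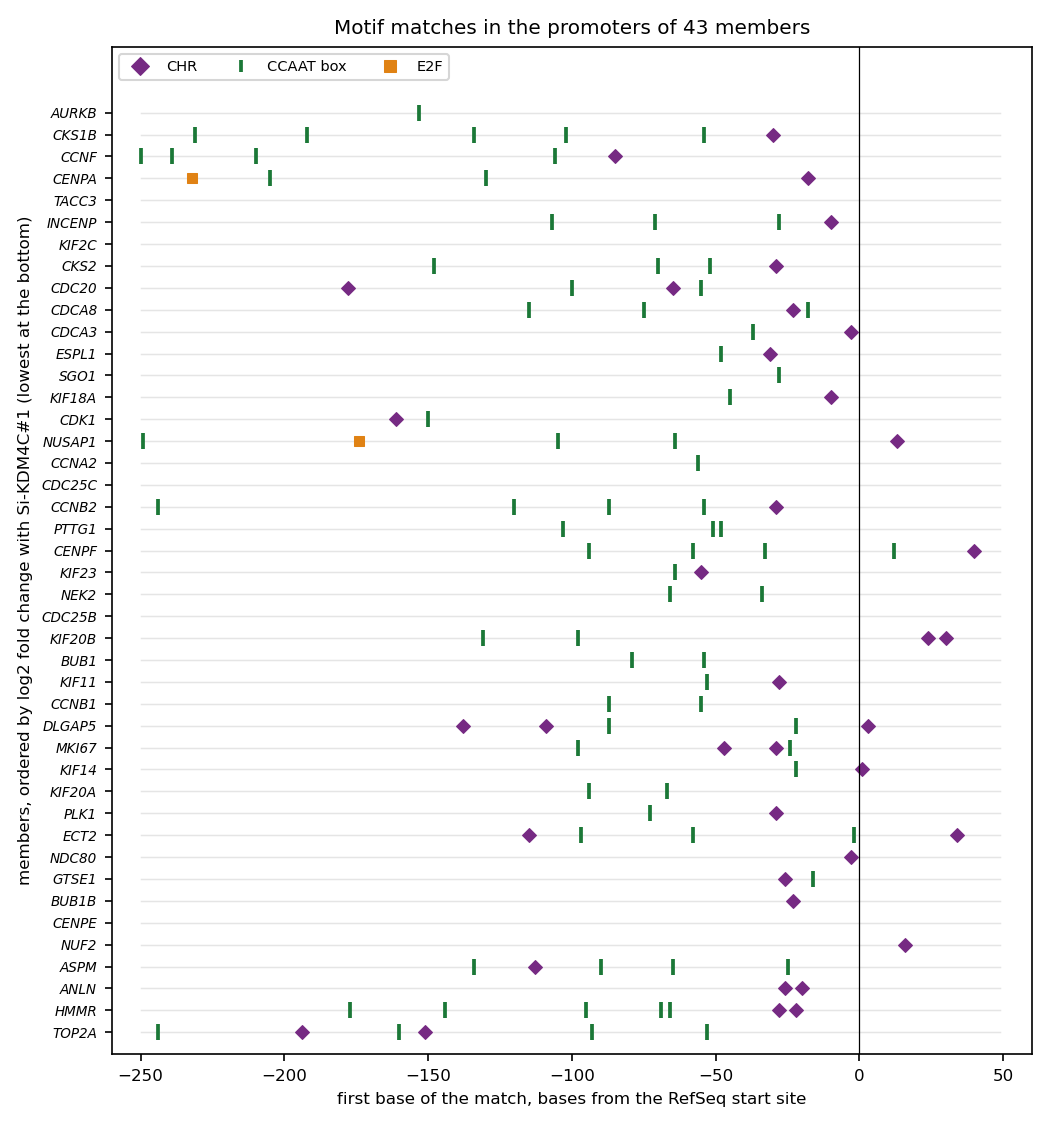
Matches to the CHR (purple), the CCAAT box (green) and an E2F site (orange) in the promoters of 43 members, one row per gene, with the position of the first base of the match relative to the RefSeq start site on the x axis. Genes are ordered by their log2 fold change with Si-KDM4C#1, lowest at the bottom. CHR matches are seen in members that fell and in members that rose. Their median, -27, was taken with PRC1 included, which is not shown.

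With Si-KDM4C#1 the members moved both ways. At a false discovery rate (FDR) under 0.05, 20 of the 52 tested members rose, where 31.7% of all tested genes did, and 25 fell, where 33.9% of all tested genes did. The other 7 did not pass the test. The median log2 fold change was -0.08 over the members and -0.03 over all genes tested. With a fold change over 2 required as well, 3 members were higher, AURKB, CKS1B and CCNF (background 4.04%), and 2 were lower, TOP2A and HMMR (background 4.83%). The 3 Si-KDM4C#1 libraries lay above all 3 Scramble libraries for 20 members (33.5% of all tested genes), below them for 25 (36.0% of all tested genes), and overlapped with them for 7.

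With Si-KDM4C#2 the members moved one way. Of the 52, 48 rose (background 34.4%), none fell (background 25.0%), and BUB3, CENPE, KIF18A and ANLN did not pass the test. The median log2 fold change was 0.57 over the members and 0.06 over all genes tested. Past a fold of 2, 7 members were higher, CENPA, BIRC5, AURKB, TACC3, INCENP, CDCA3 and CCNA2 (background 2.60%), and 0 were lower (background 2.30%). The 48 members that rose were above every Scramble library in all 3 Si-KDM4C#2 libraries, as were 37.3% of all tested genes, and the other 4 overlapped.

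The difference between the siRNAs was tested directly. Si-KDM4C#2 stood above Si-KDM4C#1 for 45 of 52 members (background 35.9%) and below it for 2, CKS1B and CCNF (background 26.5%). Past a fold of 2, 11 were higher with Si-KDM4C#2, TOP2A, GTSE1, HMMR, PLK1, ASPM, NDC80, TPX2, KIF20A, KIF14, BUB1B and CDCA2 (background 4.41%), and 0 were lower (background 2.49%). The median difference was 0.66 over the members and 0.08 over all genes tested. Both comparisons with Scramble use the same 3 Scramble libraries.

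Summed over the 53 members, FPKM was 1163 to 1228 in Scramble, 1190 to 1206 with Si-KDM4C#1 and 1814 to 1850 with Si-KDM4C#2. The members took 0.490% to 0.513% of all fragments in Scramble, 0.448% to 0.459% with Si-KDM4C#1 and 0.735% to 0.750% with Si-KDM4C#2. Scramble and Si-KDM4C#1 were thus close in the sum of FPKM while their single genes went apart. In whole cultures, a change in the share of cells in G2 and mitosis and a change in RNA per cell cannot be told apart.

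**Figure D2:**
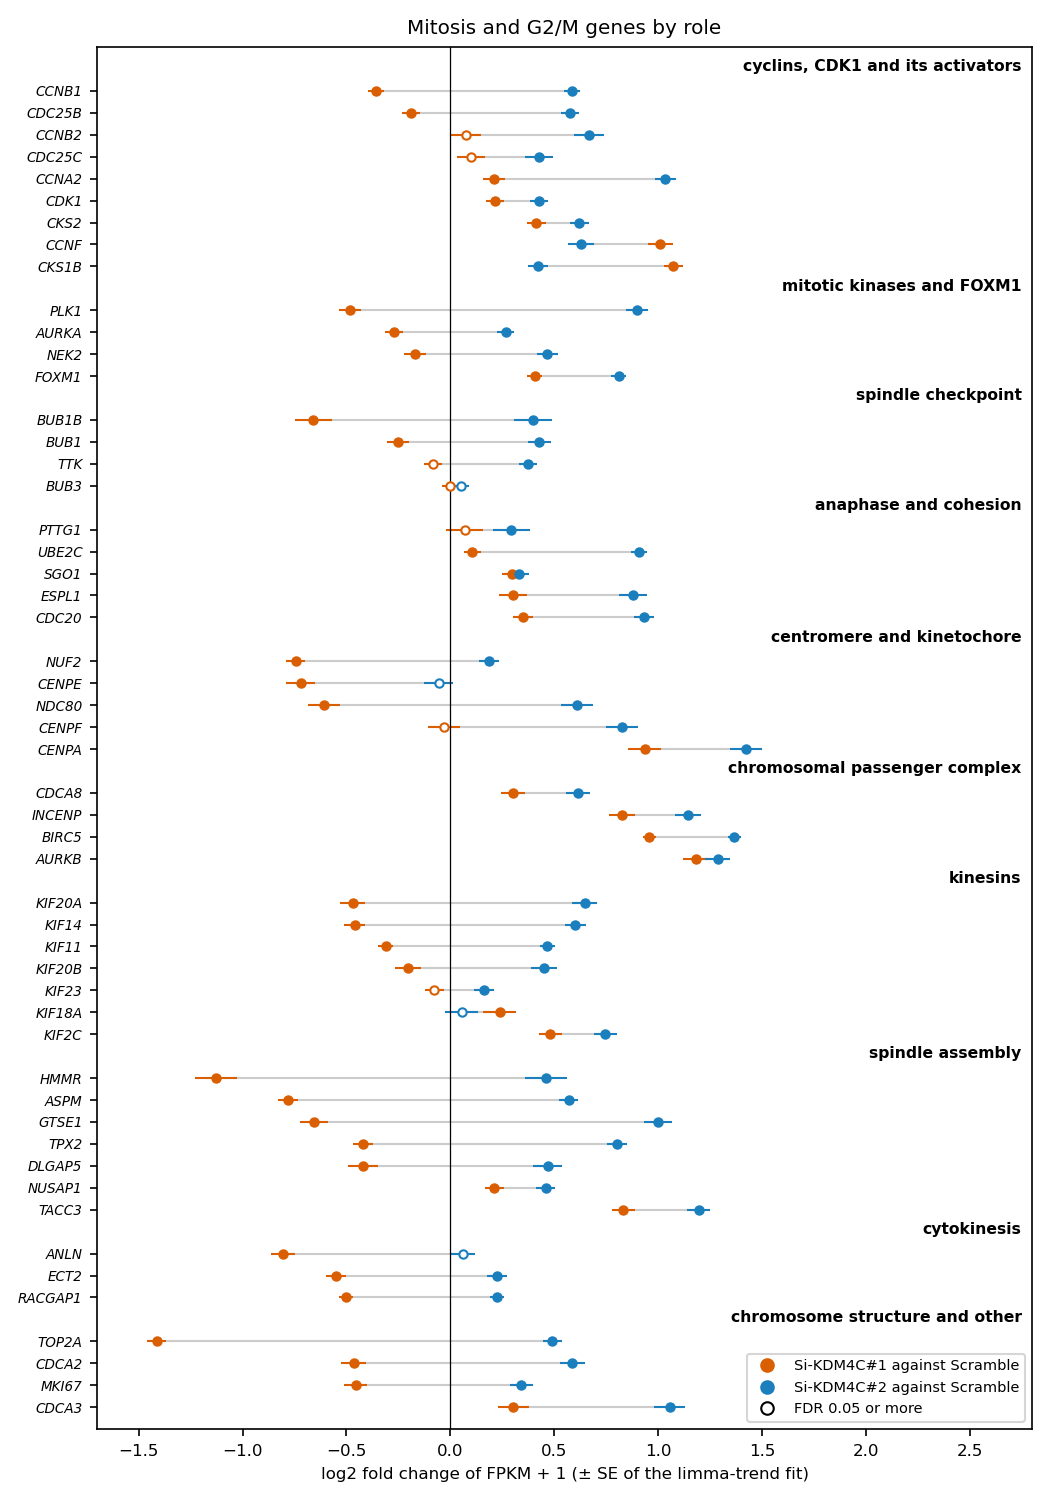
Log2 fold change of FPKM + 1 against Scramble (x axis, bars are ± SE of the limma-trend fit) for the 52 tested members, grouped by role, with Si-KDM4C#1 in orange, Si-KDM4C#2 in blue and open circles where FDR was 0.05 or more. Si-KDM4C#1 values spread from -1.41 (TOP2A) to 1.18 (AURKB), and Si-KDM4C#2 values from -0.06 (CENPE) to 1.42 (CENPA).

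The counts in each role group are to be read against the shares of all tested genes, which for Si-KDM4C#1 were 31.7% (higher) and 33.9% (lower) and for Si-KDM4C#2 were 34.4% and 25.0%. Among the cyclins, CDK1 and its activators (9 genes), Si-KDM4C#1 raised 5, lowered 2 and left 2 short of the threshold, and all 9 rose with Si-KDM4C#2. CDK1 (ENSG00000170312, chr10:60778331-60794852), the kinase that drives entry into mitosis, read 29.97, 30.5 and 32.7 FPKM in Scramble, 34.8, 37.4 and 36.5 FPKM with Si-KDM4C#1, and 42.1, 42.8 and 41.4 FPKM with Si-KDM4C#2. The 3 groups did not overlap and stood in the order Scramble, Si-KDM4C#1, Si-KDM4C#2. CDK1 rose by a log2 fold change of 0.22 and 0.43 (SE 0.0427, limma-trend adjusted p = 0.00147 and 2.18e-05), and the first of these calls was lost after quantile normalization, where the change was 0.03. Its partner cyclin B1, CCNB1 (ENSG00000134057, chr5:69167010-69178245), went apart from it. CCNB1 read 49.7, 52.9 and 51.6 FPKM in Scramble, 40.6, 38.2 and 40.8 FPKM with Si-KDM4C#1, and 79.3, 77.4 and 76.1 FPKM with Si-KDM4C#2. It was lower in every Si-KDM4C#1 library and higher in every Si-KDM4C#2 library, with log2 fold changes of -0.36 and 0.58 (SE 0.0391, adjusted p = 2.68e-05 and 1.73e-06).

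CCNB2, the other B-type cyclin, overlapped with Scramble under Si-KDM4C#1 (log2 fold change 0.08, adjusted p = 0.379) and rose by 0.67 with Si-KDM4C#2. Cyclin A2, CCNA2, which acts in S phase and G2, rose by 0.21 and 1.04, the first of which was lost in at least 1 other processing. CDC25B, a phosphatase that activates CDK1, fell by 0.19 on the log2 scale with Si-KDM4C#1 and rose by 0.58 with Si-KDM4C#2. CDC25C, a second such phosphatase, had a change of 0.10 that did not pass the test with Si-KDM4C#1 and rose by 0.43 with Si-KDM4C#2.

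Both members called lower with Si-KDM4C#2 than with Si-KDM4C#1 were in this group. CKS1B (ENSG00000173207, chr1:154974653-154979249), a small subunit that binds cyclin-dependent kinases, read 31.6, 31.7 and 31.6 FPKM in Scramble, 62.7, 70.2 and 70.6 FPKM with Si-KDM4C#1, and 42.9, 43.8 and 41.6 FPKM with Si-KDM4C#2. Its Si-KDM4C#1 libraries were the highest and the groups did not overlap. The log2 fold changes were 1.07 and 0.42 (SE 0.0473, adjusted p = 7.68e-08 and 4.65e-05), and Si-KDM4C#2 was below Si-KDM4C#1 by -0.65 (adjusted p = 2.16e-06). The genome holds 6 pseudogenes named after CKS1B, to which near-identical reads could have been assigned. CCNF (ENSG00000162063, chr16:2429394-2458854), cyclin F, an F-box subunit of a ubiquitin ligase active in G2, read 6.20, 5.91 and 5.70 FPKM in Scramble, 13.2, 12.4 and 13.4 FPKM with Si-KDM4C#1, and 10.7, 9.03 and 9.50 FPKM with Si-KDM4C#2. It was again highest in the Si-KDM4C#1 libraries, with log2 fold changes of 1.01 and 0.63 (SE 0.0620, adjusted p = 5.52e-07 and 2.03e-05) and a difference between the siRNAs of -0.38 (adjusted p = 0.00045). Of its exonic bases, 11.8% are shared with other annotated genes. CKS2, the close relative of CKS1B, rose by 0.41 and 0.62, and its Si-KDM4C#2 libraries exceeded the Si-KDM4C#1 libraries by 0.21.

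**Figure D3:**
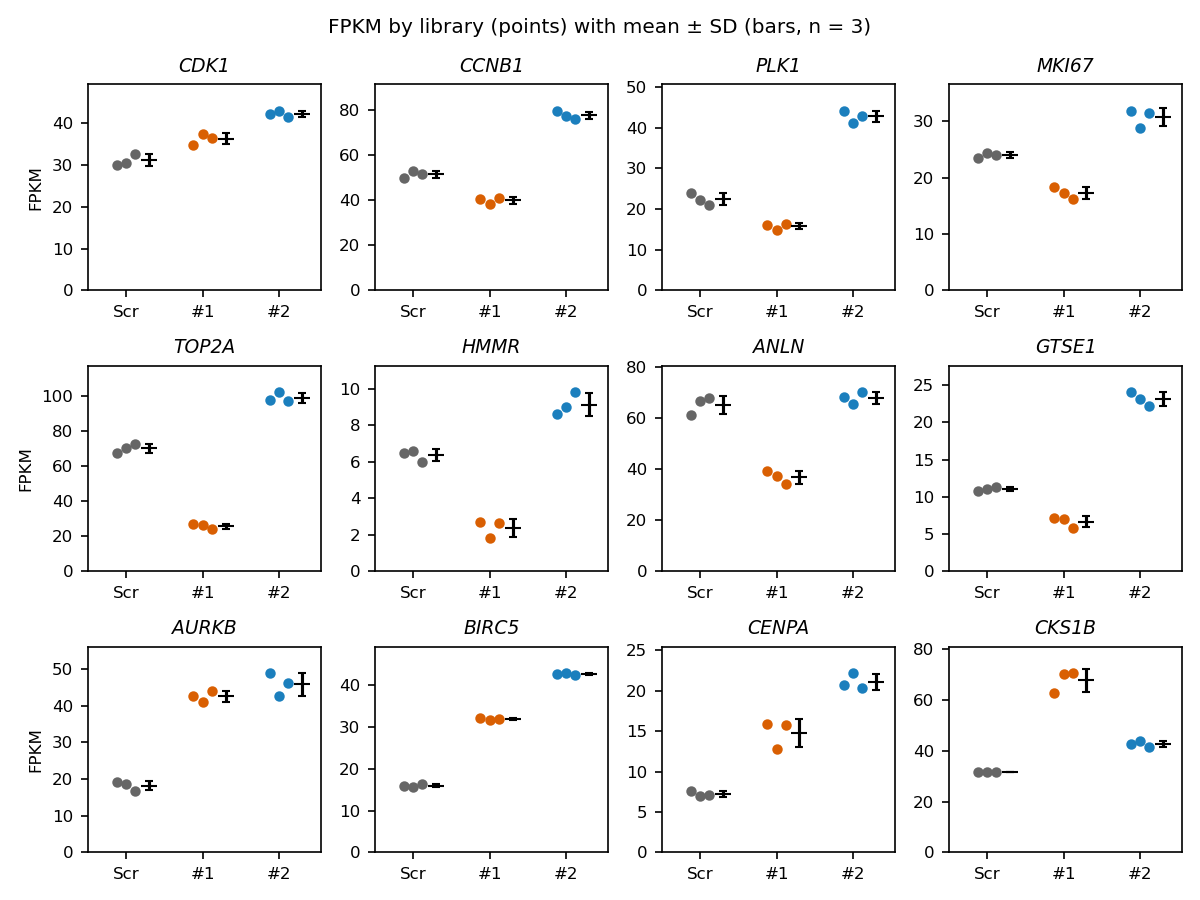
FPKM (y axis, from 0) of 12 members in the 3 libraries of Scramble (Scr, grey), Si-KDM4C#1 (#1, orange) and Si-KDM4C#2 (#2, blue), with the mean ± SD (n = 3) in black. CCNB1, PLK1, MKI67, TOP2A, HMMR and GTSE1 sat below Scramble with Si-KDM4C#1 and above it with Si-KDM4C#2. CDK1, AURKB, BIRC5, CENPA and CKS1B sat above Scramble with both. ANLN sat below it with Si-KDM4C#1 and overlapped with it under Si-KDM4C#2. CKS1B was the only one of the 12 with its highest values under Si-KDM4C#1.

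Of the 3 mitotic kinases AURKA, PLK1 and NEK2 and the transcription factor FOXM1, Si-KDM4C#1 lowered the kinases (background 33.9%) and raised FOXM1 (background 31.7%). Si-KDM4C#2 raised all 4 (background 34.4%). PLK1 (ENSG00000166851, chr16:23677656-23690367), which acts from centrosome maturation to cytokinesis, read 24.0, 22.3 and 21.1 FPKM in Scramble, 16.0, 15.0 and 16.4 FPKM with Si-KDM4C#1, and 44.0, 41.3 and 43.0 FPKM with Si-KDM4C#2. The groups did not overlap, and the log2 fold changes were -0.48 and 0.90 (SE 0.0541, adjusted p = 3.31e-05 and 9.18e-07), with 1.38 between the siRNAs (adjusted p = 5.36e-08). AURKA, the centrosomal Aurora kinase, changed by -0.27 and 0.27, and NEK2, a centrosome separation kinase, by -0.17 and 0.47. The fall of NEK2 was lost without single libraries and turned to 0.02 after adjustment for GC content. FOXM1, which activates many of the other members in G2, rose by 0.41 and 0.81.

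The 4 spindle checkpoint genes, whose products hold back anaphase until chromosomes are attached, did not include one that rose with Si-KDM4C#1 (background 31.7%). BUB1B fell by 0.66 on the log2 scale, from 13.6, 17.3 and 16.1 FPKM in Scramble to 9.81, 10.4 and 8.45 FPKM, and BUB1 fell by 0.25. The call for BUB1 was lost in at least 1 other processing, and its change after GC adjustment was -0.08. With Si-KDM4C#2, BUB1B and BUB1 rose by 0.40 and 0.43. TTK, the MPS1 kinase, had a change of -0.08 that did not pass the test with Si-KDM4C#1 and 0.13 after GC adjustment, and it rose by 0.37 with Si-KDM4C#2. BUB3, a scaffold of the checkpoint, stood at 25.3 to 27.4 FPKM over all 9 libraries and passed no test, although its GC-adjusted change with Si-KDM4C#1 was 0.20 (adjusted p = 0.000763).

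Of 5 genes of anaphase and cohesion, Si-KDM4C#1 raised 4 (80.0%, where 31.7% of all tested genes rose) and Si-KDM4C#2 raised all 5 (background 34.4%). CDC20, the activator of the anaphase-promoting complex, rose by 0.35 and 0.93 on the log2 scale. The level of CDC20 in the Si-KDM4C#2 libraries was 78.3, 71.3 and 69.7 FPKM, against 37.0, 39.5 and 36.7 FPKM in Scramble. UBE2C, the ubiquitin-conjugating enzyme of that complex, rose by 0.11 and 0.91, and its change with Si-KDM4C#1 was -0.09 after quantile normalization and did not pass the test there. ESPL1, separase, which cuts cohesin, rose by 0.30 and 0.88. SGO1, shugoshin, which protects cohesin at centromeres, rose by 0.30 and 0.33, and its libraries overlapped between the siRNAs (difference 0.03, adjusted p = 0.551). PTTG1, securin, the inhibitor of separase, had the widest spread of the members in Scramble, 36.5, 44.2 and 48.5 FPKM. Its rise of 0.29 with Si-KDM4C#2 was lost in 1 of the fits that left out a library (limma-trend adjusted p = 0.0506). The same call was lost in at least 1 other processing.

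Centromere and kinetochore genes split. CENPA (ENSG00000115163, chr2:26764289-26801067), the histone H3 variant that marks centromeres, read 7.65, 6.95 and 7.09 FPKM in Scramble, 15.9, 12.8 and 15.7 FPKM with Si-KDM4C#1, and 20.7, 22.1 and 20.3 FPKM with Si-KDM4C#2. Every silenced library was above every Scramble library, and CENPA had the largest rise of any member with Si-KDM4C#2, at 1.42 on the log2 scale, beside 0.93 with Si-KDM4C#1 (SE 0.0782, adjusted p = 5.23e-07 and 4.32e-06). NUF2 and NDC80, partners in the complex that binds microtubules, fell by 0.74 and 0.61 with Si-KDM4C#1 and rose by 0.18 and 0.61 with Si-KDM4C#2. The rise of NUF2 was lost in at least 1 other processing. The kinetochore motor CENPE fell by 0.72 with Si-KDM4C#1 and overlapped with Scramble under Si-KDM4C#2 (-0.06, adjusted p = 0.518). CENPF, a large protein of the outer kinetochore, did the reverse, with -0.03 (adjusted p = 0.754) and a rise of 0.83.

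The chromosomal passenger complex, which corrects faulty attachments and positions the cleavage furrow, had 4 of 4 genes higher with Si-KDM4C#1 (background 31.7%) and 4 of 4 with Si-KDM4C#2 (background 34.4%). The medians of its log2 fold changes were 0.89 and 1.22. Its kinase AURKB (ENSG00000178999, chr17:8204733-8210600) read 19.2, 18.6 and 16.8 FPKM in Scramble, 42.5, 41.0 and 44.1 FPKM with Si-KDM4C#1, and 48.8, 42.5 and 46.2 FPKM with Si-KDM4C#2. AURKB was above Scramble in all 6 silenced libraries and overlapped between the siRNAs, with log2 fold changes of 1.18 and 1.29 (SE 0.0617, adjusted p = 2.13e-07 and 2.35e-07) and a difference of 0.10 (adjusted p = 0.167). BIRC5 (ENSG00000089685, chr17:78214186-78225636), survivin, which targets the complex to centromeres, read 16.0, 15.6 and 16.3 FPKM in Scramble, 32.3, 31.7 and 31.8 FPKM with Si-KDM4C#1, and 42.7, 42.9 and 42.5 FPKM with Si-KDM4C#2. Its libraries were tight within groups and far apart between them, at 0.96 and 1.37 (SE 0.0315, adjusted p = 1.75e-08 and 6.15e-09). INCENP, the scaffold, rose by 0.83 and 1.14, and CDCA8, borealin, by 0.30 and 0.61. AURKA and AURKB, related kinases of the centrosome and the centromere, therefore moved in opposite directions with Si-KDM4C#1, -0.27 against 1.18.

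Of the 7 kinesins, Si-KDM4C#1 raised 2 (28.6%, near the 31.7% of all tested genes) and lowered 4 (57.1%, background 33.9%), and Si-KDM4C#2 raised 6 (85.7%, background 34.4%). KIF11, which pushes spindle poles apart, fell by 0.31 and rose by 0.47. The call of its fall was lost in at least 1 other processing, and its change after GC adjustment was -0.05. KIF20A and KIF14, which act at the central spindle, fell by 0.47 and 0.46 with Si-KDM4C#1 and rose by 0.65 and 0.60 with Si-KDM4C#2. KIF20B changed by -0.20 and 0.45, and its first value became 0.12 after GC adjustment and did not pass the test. KIF2C, a microtubule depolymerase, rose by 0.48 and 0.75. KIF18A, a motor that dampens chromosome movement, rose by 0.24 with Si-KDM4C#1, a call lost when single libraries were left out, and had 0.05 with Si-KDM4C#2. Its difference between the siRNAs, -0.18, did not pass the test (adjusted p = 0.0682) but did so at -0.29 after quantile normalization, -0.34 with voom and -0.34 after GC adjustment. KIF23, a subunit of centralspindlin, had -0.08 (adjusted p = 0.179) with Si-KDM4C#1 and rose by 0.16 with Si-KDM4C#2. That rise was lost in 1 of the fits that left out a library (limma-trend adjusted p = 0.0519) and in at least 1 other processing.

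Of 7 tested spindle assembly genes, 5 fell (71.4%, background 33.9%) and 2 rose (28.6%, near the 31.7% of all tested genes) with Si-KDM4C#1. All 7 rose with Si-KDM4C#2 (background 34.4%). HMMR (ENSG00000072571, chr5:163460203-163491945), a spindle pole protein and hyaluronan receptor, read 6.46, 6.61 and 5.99 FPKM in Scramble, 2.72, 1.83 and 2.64 FPKM with Si-KDM4C#1, and 8.61, 8.98 and 9.80 FPKM with Si-KDM4C#2. The groups did not overlap, and the log2 fold changes were -1.13 and 0.46 (SE 0.101, adjusted p = 7.21e-06 and 0.00332), with 1.59 between the siRNAs (adjusted p = 9.5e-07). GTSE1 (ENSG00000075218, chr22:46296741-46330810), a microtubule regulator of G2 and mitosis, read 10.8, 11.1 and 11.3 FPKM in Scramble, 7.13, 7.06 and 5.85 FPKM with Si-KDM4C#1, and 24.0, 23.1 and 22.2 FPKM with Si-KDM4C#2. It was below Scramble in every library of one siRNA and above it in every library of the other, at -0.65 and 1.00 (SE 0.0664, adjusted p = 1.65e-05 and 1.68e-06) and 1.65 between the siRNAs (adjusted p = 5.92e-08).

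ASPM, which acts at spindle poles, fell by 0.78 with Si-KDM4C#1 and rose by 0.57 with Si-KDM4C#2. TPX2, the activator of AURKA, changed by -0.42 and 0.80, and DLGAP5, a stabiliser of spindle fibres, by -0.42 and 0.47. The fall of DLGAP5 was lost in at least 1 other processing, and its change after GC adjustment was -0.16. TACC3, which links fibres within the spindle, rose by 0.83 and 1.20, as did NUSAP1 by 0.21 and 0.46. The first NUSAP1 call was lost in at least 1 other processing, and the change was 0.02 after quantile normalization. For NUSAP1, 62.2% of exonic bases are shared with another annotated gene, so its fragments could not be assigned to it with certainty.

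All 3 genes grouped here as cytokinesis fell with Si-KDM4C#1 (background 33.9%). Genes of the central spindle or cleavage furrow placed in other groups went several ways with this siRNA. The kinesins KIF20A and KIF14 fell, KIF23 did not pass the test, and the passenger complex genes rose. ANLN (ENSG00000011426, chr7:36389806-36453791), anillin, the scaffold of the contractile ring, read 61.1, 66.5 and 67.9 FPKM in Scramble, 39.3, 37.1 and 34.2 FPKM with Si-KDM4C#1, and 68.2, 65.5 and 70.1 FPKM with Si-KDM4C#2. The Si-KDM4C#1 libraries stood apart and the other 2 groups overlapped, at -0.80 (SE 0.0576, adjusted p = 1.54e-06) and 0.06 (adjusted p = 0.399). ECT2, the exchange factor that activates RhoA at the cleavage plane, fell by 0.55 and rose by 0.22, and RACGAP1, the centralspindlin subunit that recruits ECT2, fell by 0.50 and rose by 0.23. The rises of these genes with Si-KDM4C#2 were among the smallest of the members that passed the test, and that of ECT2 was lost in at least 1 other processing.

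TOP2A had the largest fall of any member with Si-KDM4C#1. TOP2A (ENSG00000131747, chr17:40388516-40417950), the topoisomerase that untangles sister chromatids, read 67.3, 70.2 and 72.3 FPKM in Scramble, 26.7, 26.2 and 24.0 FPKM with Si-KDM4C#1, and 97.2, 102 and 97.0 FPKM with Si-KDM4C#2. The groups were far apart and did not overlap. The log2 fold changes were -1.41 and 0.49 (SE 0.0470, adjusted p = 1.81e-08 and 1.68e-05), and the difference between the siRNAs, 1.90, was the largest of the members (adjusted p = 5.79e-09). MKI67 (ENSG00000148773, chr10:128096659-128126385), the Ki-67 antigen that coats mitotic chromosomes and is used as a proliferation marker, read 23.5, 24.4 and 24.1 FPKM in Scramble, 18.4, 17.3 and 16.2 FPKM with Si-KDM4C#1, and 31.8, 28.9 and 31.6 FPKM with Si-KDM4C#2. It changed in the same directions by less, -0.46 and 0.34 (SE 0.0539, adjusted p = 4.79e-05 and 0.000436). CDCA2, a phosphatase subunit that loads onto anaphase chromatin, changed by -0.46 and 0.59, and CDCA3, which takes part in the turnover of mitotic inhibitors, rose by 0.30 and 1.06.

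Listed beside each other, the 25 members that fell with Si-KDM4C#1 had log2 fold changes with Si-KDM4C#2 of -0.06 to 1.00 (median 0.47), and the 20 that rose had 0.05 to 1.42 (median 0.85). These values share the Scramble libraries and are a description only. The 2 sets differed in base composition. The median GC content of the longest transcript was 41.8% for members that fell with Si-KDM4C#1 and 50.8% for those that rose. Of the 12 members under 40% GC, 10 fell and 2 rose with Si-KDM4C#1, where 52.5% of all tested genes in that class fell and 14.8% rose. Of the 15 members over 50% GC, 3 fell and 12 rose, where 22.6% of all tested genes in that class fell and 43.7% rose. Across the 52 genes, which share libraries and are not independent, Pearson's r between GC content and log2 fold change was 0.53 for the first siRNA and 0.64 for the second, against 0.32 and 0.31 over all tested genes.

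After adjustment of each library for GC content, r over the members was 0.29 and 0.38. The counts were then 23 higher and 20 lower with Si-KDM4C#1, with a median of 0.10 in place of -0.08, and 49 higher and 0 lower with Si-KDM4C#2. TOP2A, HMMR and ANLN still had -1.17, -0.84 and -0.58 with Si-KDM4C#1, and AURKB, CKS1B and CENPA 1.06, 1.22 and 0.97. Whether GC content had any further part in these changes was not tested.

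**Figure D4:**
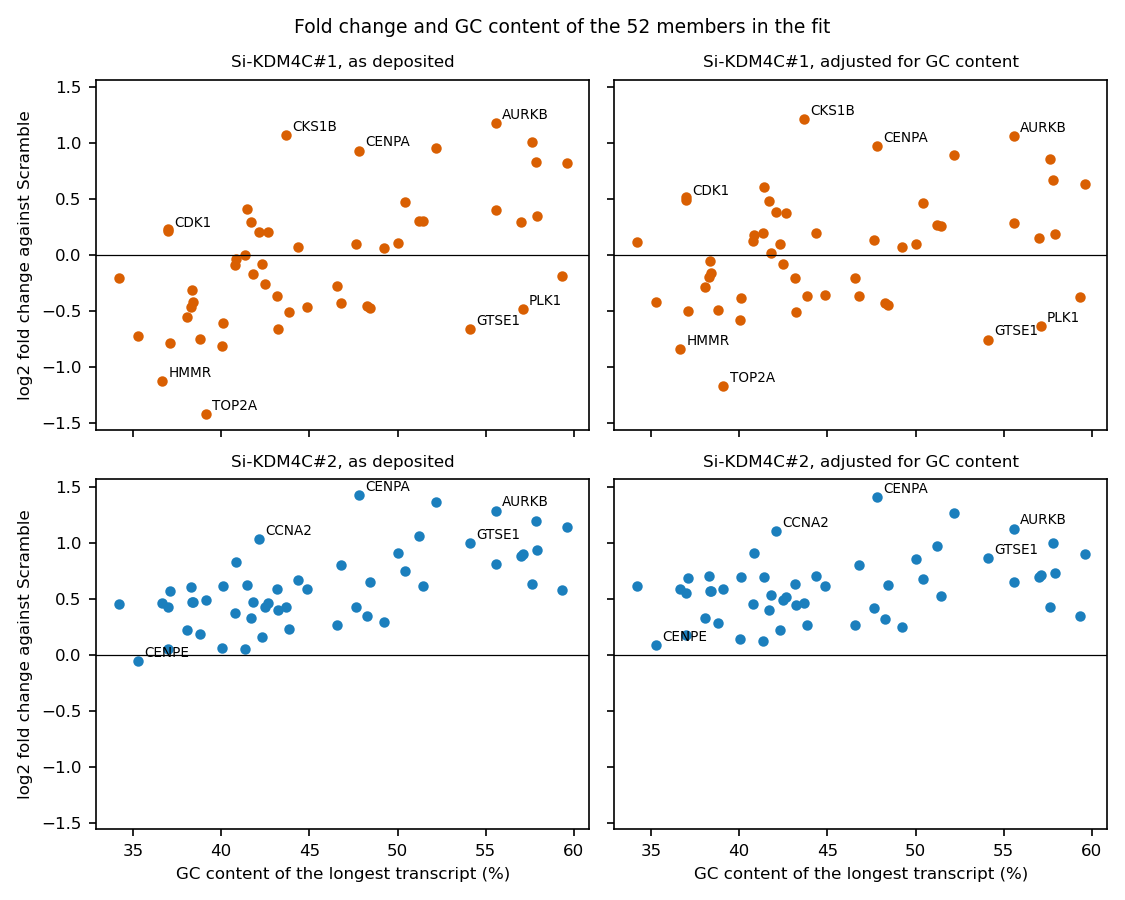
Log2 fold change against Scramble (y axis) and GC content of the longest transcript in percent (x axis) for the 52 tested members, with Si-KDM4C#1 above and Si-KDM4C#2 below, as deposited on the left and after GC adjustment on the right. Points rise with GC content in each left panel, and less so on the right, and the Si-KDM4C#2 points stay above or near 0 in both.

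Other genes of the same processes were read from lists drawn up by role. Of 27 further kinetochore genes, Si-KDM4C#1 raised 14 (51.9%, where 31.7% of all tested genes rose) and lowered 8 (29.6%, background 33.9%), and Si-KDM4C#2 raised 15 (55.6%, background 34.4%) and lowered 2 (7.41%, background 25.0%). CENPW, of the inner kinetochore, read 13.2, 15.7 and 14.4 FPKM in Scramble, 39.98, 45.3 and 43.6 FPKM with Si-KDM4C#1, and 24.1, 23.8 and 21.3 FPKM with Si-KDM4C#2, a rise of 1.51 and 0.64. ZW10, a checkpoint adaptor, rose by 0.29 and 1.23. Of 8 condensin genes, 3 rose (37.5%) and 4 fell (50%) with Si-KDM4C#1, and 6 rose (75.0%) and 0 fell with Si-KDM4C#2, against the same backgrounds, with SMC2 at -0.997 and 0.13 (adjusted p = 0.0578 for the second) and NCAPD2 at 0.62 and 0.90.

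Of 11 cohesin genes, 9 fell with Si-KDM4C#1 (81.8%, background 33.9%) and 1 rose (9.09%, background 31.7%). The loader NIPBL fell from 16.1, 16.3 and 16.4 FPKM in Scramble to 4.97, 5.10 and 4.56 FPKM, by 1.55 on the log2 scale, and stood at 15.9, 17.0 and 17.0 FPKM with Si-KDM4C#2. CDCA5, sororin, which stabilises cohesin, was the gene that rose, by 1.38, and it also rose by 0.84 with Si-KDM4C#2, where 5 cohesin genes rose (45.5%, background 34.4%) and 2 fell (18.2%, background 25.0%). Of 17 genes of the anaphase-promoting complex, 8 rose (47.1%) and 3 fell (17.6%) with Si-KDM4C#1, and with Si-KDM4C#2 5 rose and 4 fell (29.4% and 23.5%, near the 34.4% and 25.0% of all tested genes). Its subunit CDC16 fell by 0.82 with Si-KDM4C#1 and had 0.09 (adjusted p = 0.353) with Si-KDM4C#2. The small subunit CDC26 read 7.55, 9.10 and 8.09 FPKM in Scramble, 13.8, 15.6 and 13.3 FPKM with Si-KDM4C#1, and 1.81, 1.64 and 3.49 FPKM with Si-KDM4C#2, opposite to the general order of the members.

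Of 13 genes that restrain mitotic entry or serve the G2 checkpoint, 8 rose (61.5%, background 31.7%) and 5 fell (38.5%, background 33.9%) with Si-KDM4C#1, and 6 rose (46.2%, background 34.4%) and 1 fell (7.69%, background 25.0%) with Si-KDM4C#2. The gene that fell was CDKN1A, the p21 inhibitor of cyclin-dependent kinases. CDKN1A read 218, 205 and 199 FPKM in Scramble, 417, 476 and 500 FPKM with Si-KDM4C#1, and 48.3, 49.2 and 46.0 FPKM with Si-KDM4C#2. It was above Scramble with one siRNA and below it with the other in every library, at 1.16 and -2.09, with -3.25 between the siRNAs (SE 0.0659, adjusted p = 2.12e-09). PKMYT1, a kinase that inhibits CDK1, rose by 1.64 and 1.07. Of 18 tested MuvB, B-MYB and E2F regulators, 9 rose (50%) and 3 fell (16.7%) with Si-KDM4C#1, and 9 rose (50%) and 5 fell (27.8%, near the 25.0% of all tested genes) with Si-KDM4C#2. MYBL2, B-MYB, read 46.3, 47.4 and 50.3 FPKM in Scramble, 83.7, 84.4 and 87.0 FPKM with Si-KDM4C#1, and 102, 97.6 and 102 FPKM with Si-KDM4C#2, a rise of 0.81 and 1.05.

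Of the 25 G1/S and replication genes, Si-KDM4C#1 raised 15 (60%, background 31.7%) and lowered 6 (24.0%, background 33.9%), and Si-KDM4C#2 raised 17 (68.0%, background 34.4%) and lowered 6 (24.0%, near the 25.0% of all tested genes). Between the siRNAs, 6 were higher with Si-KDM4C#2 (24.0%, background 35.9%) and 13 lower (52%, background 26.5%). Their summed FPKM was 1438 to 1464 in Scramble, 1793 to 1854 with Si-KDM4C#1 and 1629 to 1672 with Si-KDM4C#2, so here the Si-KDM4C#1 libraries were highest. UNG, a uracil DNA glycosylase of S phase, rose by 1.65 and 0.98.

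**Figure D5:**
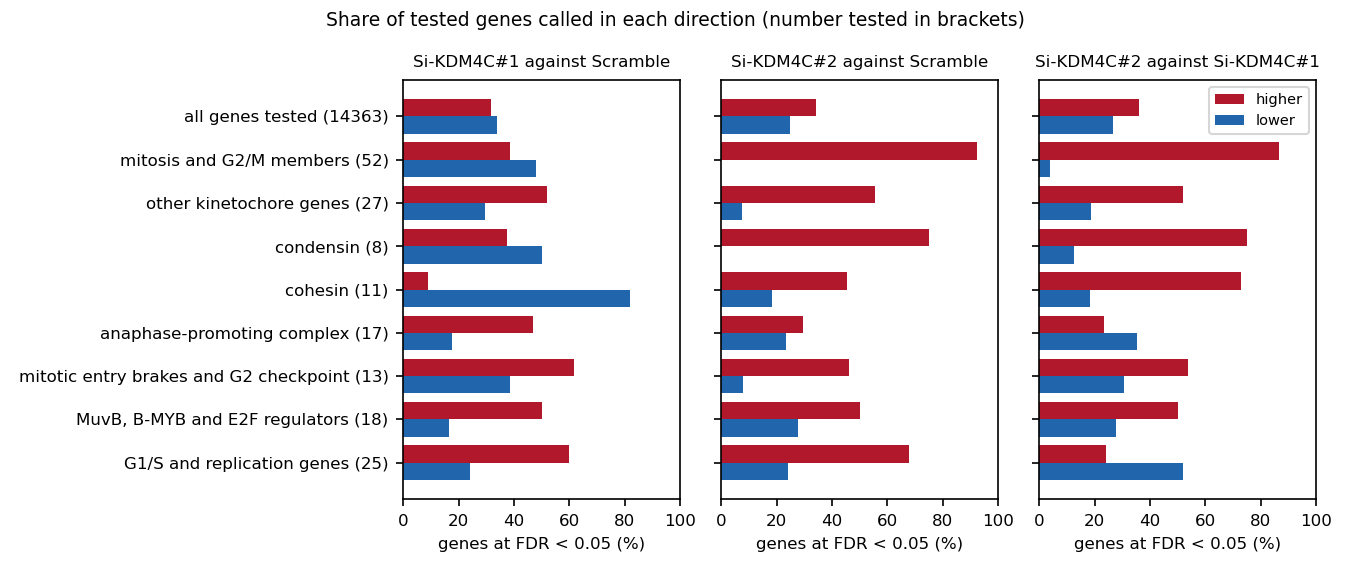
Share of tested genes (x axis, percent, from 0) called higher (red) or lower (blue) at FDR under 0.05 in each gene list, with the number tested in brackets, for the 3 comparisons. The mitosis and G2/M members had 92.3% higher and 0% lower with Si-KDM4C#2, and cohesin had 81.8% lower with Si-KDM4C#1.

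The members rested on 2894 to 60308 fragments each over the 9 libraries, PRC1 aside with 565, and their SE on the log2 scale was 0.0315 to 0.101. The coefficient of variation among the 3 libraries of a group had medians over the members of 4.47% (Scramble), 4.41% (Si-KDM4C#1) and 4.01% (Si-KDM4C#2). Overlap with other annotated genes was over 5% of exonic bases for 12 members, and 12 had named pseudogenes. No source used here states that strand was used in counting, so fragments of a gene and an overlapping antisense gene could not be told apart.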

How the data were processed

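The authors deposited 1 table of FPKM per library, made from paired-end reads. Their processing notes name, among others, FastQC 0.11.5, HISAT2 2.1.0, StringTie 1.3.3b, featureCounts and GRCh38, with no role stated. Fragments were recovered from the FPKM values with GENCODE 29 exon lengths; 97.6% of 32847 genes came out whole in all libraries (tolerance 0.05 fragment). FPKM + 1 was put on the log2 scale, so folds of low genes are understated. Genes whose group mean reached 1 FPKM in any of the 3 groups were fitted over all 9 libraries with limma-trend 3.58.1 in R 4.3.3, without covariates, and p-values were adjusted by Benjamini-Hochberg over 14363 genes. Calls were made at FDR < 0.05, with the study's added limit of a fold over 2 beside them. That fold was taken here on FPKM + 1, so counts past it are not like for like with the study's. Members short of it include CENPA with Si-KDM4C#1 and GTSE1 with Si-KDM4C#2, whose ratios of mean FPKM were 2.05 and 2.09. The script was tested on simulated data. A count of 3 fragments corresponds to 0.166 to 0.206 FPKM for 1 kb of exon, depending on the library. GC adjustment was by lowess (span 0.3) per library. Groups came from the labels. Members, lists and the rule for named genes (all members, KDM4C, and the gene with the largest called change per other list and siRNA; full values for the 3 largest falls and rises and for CDK1, CCNB1, PLK1, AURKB, TOP2A and MKI67) were chosen with earlier results of these data known. The alternatives tried were a pseudocount of 0.1, quantile normalization, no filter, 1 FPKM in every library, the 6 libraries of a comparison, a replicate block, voom on recovered fragments, GC adjustment with and without the block, and leaving out each library. Promoters came from RefSeq. The siRNA sequences are not shown.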

Additional observations from a re-analysis of the deposited data

Results flagged for a closer look

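Among the members and the other genes named above by rule, in 13 the siRNAs were called in opposite directions against the shared Scramble libraries, and the direct difference of Si-KDM4C#2 from Si-KDM4C#1 passed FDR 0.05 with a fold over 2 (limma-trend). Against Scramble alone, 23 members were called lower with Si-KDM4C#1 and higher with Si-KDM4C#2. The shares of all tested genes that met these rules were not counted, so whether the counts are unusual cannot be read here. Taken singly, 33.9% of all tested genes were lower with Si-KDM4C#1 and 34.4% were higher with Si-KDM4C#2. Past a fold of 2, the direct difference was positive for 4.41% of all tested genes and negative for 2.49%. For 11 members the difference was positive on the log2 scale, with Si-KDM4C#1 below and Si-KDM4C#2 above Scramble in every library. It was 1.90 for TOP2A, 1.65 for GTSE1, 1.59 for HMMR, 1.38 for PLK1, 1.35 for ASPM, 1.22 for TPX2, 1.22 for NDC80, 1.12 for KIF20A, 1.06 for KIF14, 1.06 for BUB1B and 1.05 for CDCA2. For 2 genes outside the member list it was negative, -3.25 for CDKN1A, which restrains cyclin-dependent kinases, and -2.24 for CDC26, a subunit of the anaphase-promoting complex. In the other lists, 3 genes named after their values were seen met the same limits, the condensin genes NCAPH (1.796) and SMC4 (1.46) and the cohesin gene STAG1 (1.01).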

How the results depend on the processing

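Most calls held under the alternatives named above and the 9 fits that left out 1 library. The required fold over 2 is not among these alternatives and is given apart below. With Si-KDM4C#1, 35 of 45 called members kept their call in every alternative (lost at least once: BUB1, CCNA2, CDK1, DLGAP5, KIF11, KIF18A, KIF20B, NEK2, NUSAP1 and UBE2C) and 41 of 45 in every leave-one-out fit (lost: KIF18A, KIF20B, NEK2 and UBE2C). With Si-KDM4C#2, 44 of 48 (lost: ECT2, KIF23, NUF2 and PTTG1) and 46 of 48 (lost: KIF23 and PTTG1) did so, and between the siRNAs 44 of 47 (lost: CDK1, CKS2 and KIF23) and 47 of 47. The members' median log2 fold change with Si-KDM4C#1 was -0.14 after quantile normalization, -0.017 with voom and turned to 0.10 after GC adjustment, with or without the replicate block. With Si-KDM4C#2 it was 0.46 after quantile normalization and 0.53 with voom. Between the siRNAs it was 0.73 with a pseudocount of 0.1, 0.60 with voom and 0.54 after GC adjustment, with or without the block. Leaving out 1 library gave -0.11 to -0.06, 0.55 to 0.57 and 0.63 to 0.69 in these 3 comparisons. It gave 18 to 20 higher and 23 to 26 lower members with Si-KDM4C#1, 47 to 48 higher with Si-KDM4C#2, and 45 to 46 higher and 2 to 3 lower between the siRNAs. A required fold over 2 left 3 higher and 2 lower members with Si-KDM4C#1, 7 higher with Si-KDM4C#2, and 11 higher and 0 lower between the siRNAs. Members that turned direction with Si-KDM4C#1 and passed the test before or after the turn were BUB3 (0.20), TTK (0.13), KIF20B (0.12) and NEK2 (0.018) after GC adjustment, with or without the block, and UBE2C (-0.094) after quantile normalization. Others, such as CENPF and KIF23 after GC adjustment and CCNB2 and PTTG1 after quantile normalization, turned without passing it in either fit. The cause of these moves was not tested. Libraries with the same replicate number did not deviate together (mean correlation 0.016 over 9 pairs, against -0.008 over 18 other pairs), and the replicate block gave 20 higher and 25 lower members for Si-KDM4C#1, 48 higher ones for Si-KDM4C#2, and 46 higher and 3 lower between the siRNAs. PRC1 had the fewest fragments of the members, 565. Since 58.4% of its exonic bases are shared with other annotated genes, its fragments could not be assigned to it with certainty.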
